A study of Mus musculus with 435 samples.

Results

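The 9 genes described here are Kctd14, Tulp2 and 7 glutathione transferase genes (Gstm1, Gstm2, Gstm5, Gstm6, Gsta4, Gstp1 and Mgst1), of 16459 genes in the deposited table. They were selected on the measured means of Kctd14 and Gstm1 in somatic cells of the fetal mouse testis, which were higher at E11.5 than at E10.5. That choice used the difference between E11.5 and E10.5, so that step is given for the members as values with no test, and the members are tested at the later stages and between cells of different marker content. All 9 genes passed the filter on low values, a mean of at least 1 RPKM (reads per kilobase of exon and per M mapped reads, M standing for mega) in at least 2 captures.

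Single cells were taken from XY gonads of NR5A1-eGFP mice on a mixed background, sorted for eGFP fluorescence with the dye Draq7 to leave out dead cells, and captured on Fluidigm C1 chips. The groups were E10.5 with 59 cells, E11.5 with 93, E12.5 with 67, E13.5 with 112 and E16.5 with 65, which makes 396 cells in 9 captures. E10.5 had 1 capture and every other stage had 2. All groups carried the same reporter, which marks cells that use the Nr5a1 regulatory sequences, and how many embryos fed each capture is not given in the labels. The replicate is the capture, and since nothing says that captures came from separate litters, p-values measure the spread between these captures.

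Glutathione transferases join the tripeptide glutathione to reactive electrophiles and so help cells to clear products of lipid oxidation, drugs and, in steroid-making tissue, reactive intermediates. The mu class (Gstm), the alpha class (Gsta) and the pi class (Gstp) are soluble enzymes, whereas Mgst1 sits in membranes of the endoplasmic reticulum and mitochondria. KCTD proteins share a BTB domain, and several of them serve as adaptors that bring substrates to cullin-3 ubiquitin ligases, while Tulp2 belongs to the Tubby-like proteins. Around these stages of testis development, somatic cells that express the nuclear receptor NR5A1 divide into Sertoli cells, which form the cords, and interstitial cells, some of which become steroid-making Leydig cells.

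The label of the cells was checked first. The eGFP transcript was found at 1 RPKM or more in 370 of the 396 cells and Nr5a1 in 309, with a range over captures of 85.7% to 100% for eGFP and 55.9% to 94.1% for Nr5a1. The second E12.5 capture stood apart: 23 of its 37 cells held at least 3 markers of both Sertoli and interstitial cells, and 8 held at least 3 germ cell markers, against 0 in every other capture. The implied depth was 7.81 to 8.07 M reads per median cell in the E10.5 and E13.5 captures, labelled with a nominal depth of 25 M reads, and 2.21 to 3.23 M reads in the E11.5, E12.5 and E16.5 captures, labelled with 10 M reads. The first E13.5 capture was made on a medium-size chip and the other 8 captures on small chips. For Kctd14, 1 RPKM therefore stands for 5.68 and 7.05 reads in the E11.5 captures, against 20.2 reads in the E10.5 capture.

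The 4 mu-class members lie with Gstm3, Gstm4 and Gstm7 in 1 cluster of 7 Gstm genes on chromosome 3, which spans 149 kb on GRCm38 (GENCODE M21). The first 90 coding bases of Gstm1, read 5′ to 3′ from the GENCODE transcripts, are shown with the bases of Gstm2, Gstm6, Gstm7 and Gstm5 aligned to them. Coding bases of those genes with no partner in Gstm1 are left out, so a line need not be an unbroken stretch of its gene. For Gstm5, 654 of 672 coding bases were aligned to Gstm1. The lines are given because the read counts rest on telling such copies apart. Capitals mark bases that differ from Gstm1.
Gstm1: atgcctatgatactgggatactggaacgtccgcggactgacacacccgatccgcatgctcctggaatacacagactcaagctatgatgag
Gstm2: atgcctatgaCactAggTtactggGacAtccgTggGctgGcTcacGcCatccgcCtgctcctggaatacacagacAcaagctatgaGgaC
Gstm6: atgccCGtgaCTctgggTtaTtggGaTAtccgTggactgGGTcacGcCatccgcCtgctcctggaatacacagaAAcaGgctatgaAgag
Gstm7: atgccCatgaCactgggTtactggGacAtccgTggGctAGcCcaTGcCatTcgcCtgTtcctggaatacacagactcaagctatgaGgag
Gstm5: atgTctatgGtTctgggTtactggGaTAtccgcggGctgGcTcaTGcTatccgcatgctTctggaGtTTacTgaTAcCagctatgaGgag

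Gstm2 differs from Gstm1 at 15 of these 90 bases, Gstm7 at 17, Gstm6 at 20 and Gstm5 at 22. Over the aligned coding sequence, identity to Gstm1 was 85.9% for Gstm2, 82.3% for Gstm6 and 71.9% for Gstm5. No exact stretch of 100 bases, the read length, was shared among Gstm1, Gstm2, Gstm5 and Gstm6. Gstm1 shared 9.05% of such stretches with Gstm3 or with the gene models Gm8834 and Gstm2-ps1, and Gstm6 shared 2.41% with Gstm3, which itself had at most 4.04 RPKM in any capture. The pi-class gene Gstp1 (chr19:4035407-4037985, minus strand) shared 52.8% with its near-identical copy Gstp2 or with Gstp-ps, so its values are uncertain as those of a single gene.

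Kctd14 was all but silent in the E10.5 capture and abundant in every later capture, though never in all cells. This KCTD family gene (chr7:97451323-97459557, plus strand) overlaps no other annotated gene. Its mean was 0.11 RPKM in the E10.5 capture, 206 and 546 RPKM in the E11.5 captures, 155 and 248 RPKM at E12.5, 66.5 and 150 RPKM at E13.5, and 229 and 103.4 RPKM at E16.5. The E11.5 captures thus averaged 376 ± 241 RPKM (SD, n = 2), against 0.11 RPKM at E10.5, a difference of 8.25 in log2(mean RPKM + 1). The second E11.5 capture had the highest mean and the first E13.5 capture the lowest after E10.5. From E11.5 on, the ranges of neighbouring stages overlapped, except that both E13.5 captures lay below both E12.5 captures. In capture means, fewer cells that hold a transcript and less transcript per cell cannot be told apart, so the cells themselves are described next.

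Most cells were either low or high in Kctd14, least clearly so at E12.5. At E10.5, 43 of 59 cells were listed at 0 and the highest had 1.83 RPKM. At E11.5, 47 of 93 cells lay under 1 RPKM, 26 reached 100 RPKM, and the highest had 3174 RPKM. The other 20 E11.5 cells lay between. At E12.5, 19 of 67 cells lay under 1 RPKM, 21 lay between and 27 reached 100 RPKM, so that cells between were about as many as low ones. At E13.5 these counts were 64, 21 and 27 of 112 cells, and at E16.5 they were 27, 11 and 27 of 65 cells. In the first and second E11.5 captures the highest 6 and 5 cells held 78.1% and 58.1% of all Kctd14 signal.

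**Figure D1:**
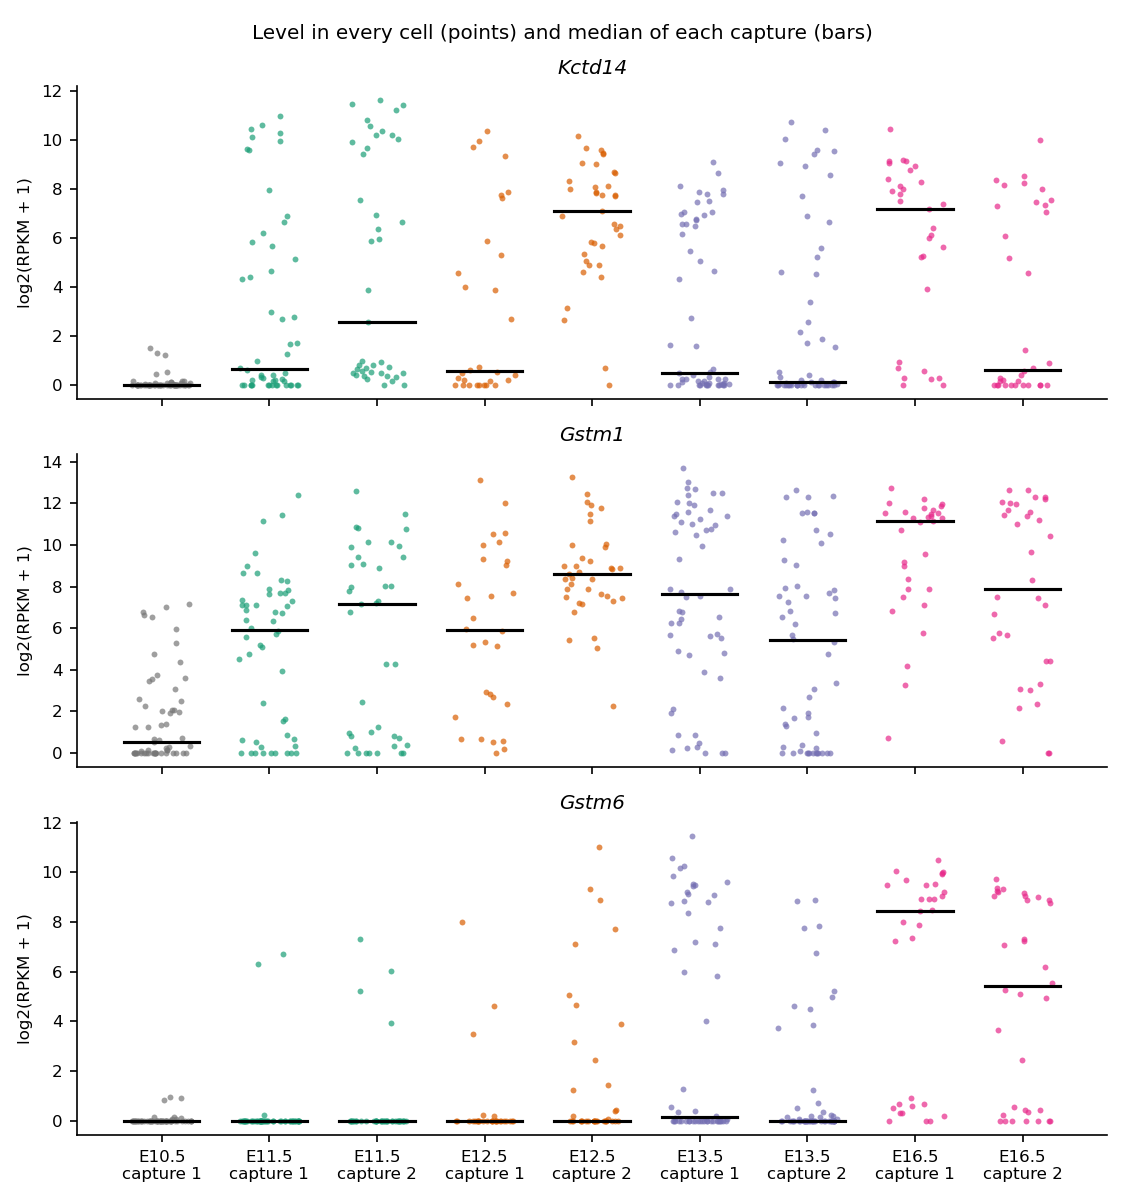
Kctd14, Gstm1 and Gstm6 in every cell, as log2(RPKM + 1) on the vertical axis, by capture on the horizontal axis. Points are cells, bars are medians of a capture and colours are stages; Kctd14 and Gstm6 are divided into cells near 0 and cells at high levels, while Gstm1 fills the range between.

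The share of cells with Kctd14 at 1 RPKM or more was 5.08% at E10.5 (Wilson 95% interval 1.74% to 13.9%, counting error only). The E11.5 captures had 46.2% and 53.7%, those of E12.5 had 43.3% and 94.6%, those of E13.5 had 46.4% and 39.3%, and those of E16.5 had 74.2% and 44.1%. The 94.6% belongs to the second E12.5 capture, the one in which most cells held markers of both lineages, and whether that mixture has a part in the share was not tested. Without it, the shares after E10.5 ran from 39.3% to 74.2%.

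**Figure D2:**
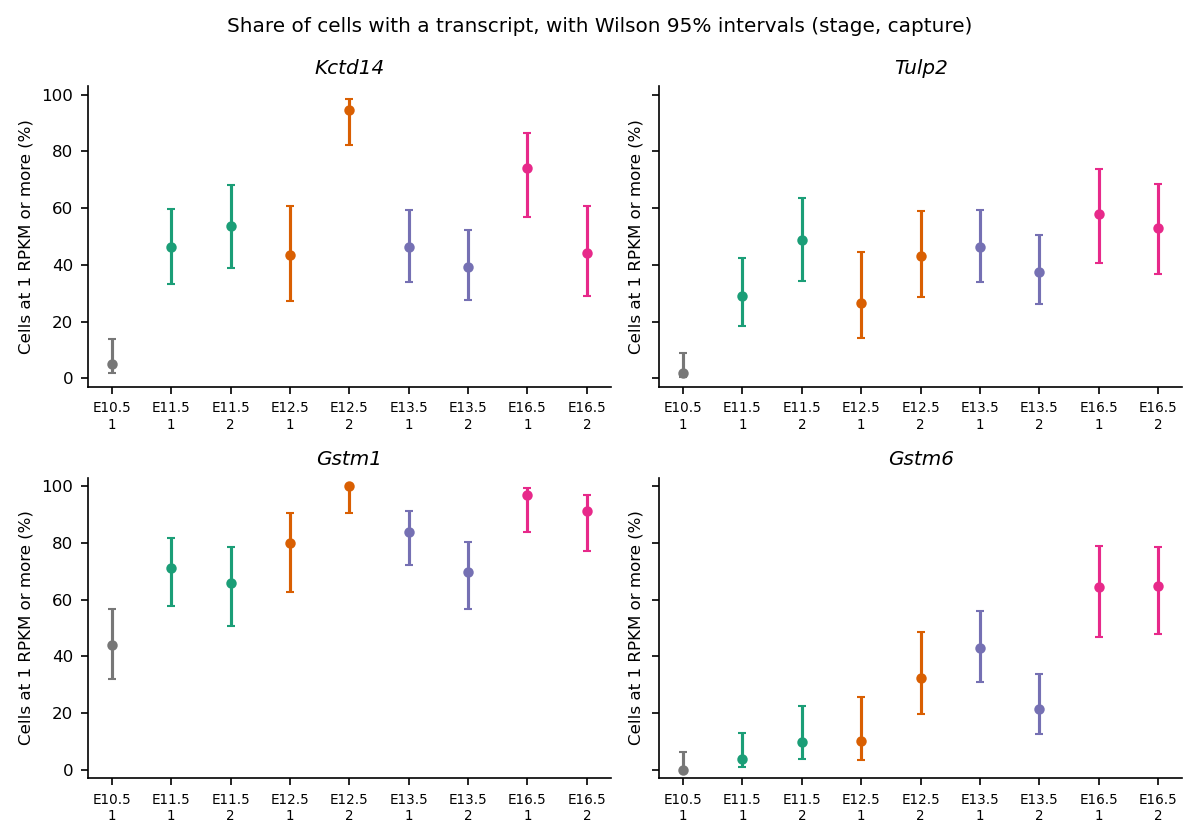
Share of cells at 1 RPKM or more for Kctd14, Tulp2, Gstm1 and Gstm6 (vertical axis, percent) in each capture (horizontal axis), with Wilson 95% intervals for counting error. Kctd14 was found in 39.3% to 94.6% of cells in later captures, against 5.08% of the E10.5 cells, and Gstm6 in 64.5% and 64.7% of the E16.5 cells, against 0 of the 59 E10.5 cells.

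Tulp2 had nearly the same on-off pattern at a lower level. This Tubby-like gene (chr7:45481877-45523632, plus strand) lies on the chromosome of Kctd14 but far from it. Its mean was 0.22 RPKM at E10.5, 29.5 and 43.8 RPKM at E11.5, 37.8 and 28.9 RPKM at E12.5, 35.3 and 25.8 RPKM at E13.5, and 48.3 and 45.3 RPKM at E16.5. Every capture from E11.5 on lay above E10.5, and among them all neighbouring stages overlapped except E16.5, where both captures lay above both E13.5 captures. Cells with Tulp2 at 1 RPKM or more made up between 26.7% and 58.1% of later captures, against 1.69% at E10.5.

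Tulp2 exons overlap those of neighbours on the other strand, 387 bases of Dhdh, a dihydrodiol dehydrogenase gene, 165 bases of the gene model Gm45808 and 12 bases of Ppp1r15a, and whether counting used strand is not stated. Gm45808 has no row in the table used here, so its level was not checked. Dhdh had 0.54 to 7.15 RPKM in later captures, against 7.37 RPKM at E10.5, and across the cells of a capture its median correlation with Tulp2 was 0.06. That correlation ranged from -0.08 to 0.49 over the captures from E11.5 on. It was highest in the first E12.5 capture, and 0.35 in the second E11.5 capture. Ppp1r15a had 16.7 to 55.5 RPKM over all 9 captures and a median correlation with Tulp2 of 0.05. Ints4, the nearest protein-coding gene to Kctd14 at 21399 bases, had 15.7 to 64.3 RPKM over all 9 captures. Its median correlation with Kctd14 was 0.08.

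The mu-class genes split into 3 kinds of time course: Gstm1 and Gstm2 were present at E10.5 and had higher means later, Gstm6 appeared late, and Gstm5 had no onset. Gstm1 (chr3:108012255-108017973, minus strand) had a mean of 13.6 RPKM at E10.5, 310 and 565 RPKM at E11.5, 701 and 1160 RPKM at E12.5, 1743 and 763 RPKM at E13.5, and 1996 and 1757 RPKM at E16.5. No capture of a stage fell below a capture of the stage before it, apart from the second E13.5 capture against the second at E12.5. The share of cells with Gstm1 at 1 RPKM or more was 65.9% to 100% in later captures, against 44.1% at E10.5, where 26 of 59 cells had it with a median of 8.66 RPKM.

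Gstm2 (chr3:107981702-107986453, minus strand) ran beside Gstm1. Its mean was 8.93 RPKM at E10.5, 93.5 and 178 RPKM at E11.5, 429 and 601 RPKM at E12.5, 1365 and 452 RPKM at E13.5, and 1461 and 911 RPKM at E16.5. The E11.5 captures differed from E10.5 by 4.84 for Gstm1 and by 3.71 for Gstm2, both in log2(mean RPKM + 1). The E12.5 captures lay above the E11.5 captures without overlap for both genes, by 1.11 for Gstm1 and 1.97 for Gstm2 on that scale.

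Gstm6 (chr3:107938847-107943749, minus strand) was not an E11.5 gene in most cells. It had 0.05 RPKM at E10.5, 3.52 and 6.66 RPKM at E11.5, 9.57 and 98.6 RPKM at E12.5, 263 and 29.03 RPKM at E13.5, and 408 and 223 RPKM at E16.5. No cell reached 1 RPKM at E10.5, where 0 of 59 has a Wilson 95% upper limit of 6.11%, and 6 of 93 cells did at E11.5. By E16.5 it was found in 64.5% and 64.7% of cells. The captures of E12.5 and E13.5 overlapped, and within each of these stages 1 capture was far above the other. The higher E13.5 capture was the first, made on the medium-size chip. That capture was also the higher of both E13.5 captures for every other member except Kctd14. The part of chip size in these levels was not tested.

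Gstm5 (chr3:107895821-107898686, plus strand) was at like levels in early and late captures. Its mean was 69.4 RPKM at E10.5, 54.9 and 86.9 RPKM at E11.5, 85.4 and 102 RPKM at E12.5, 121 and 68.4 RPKM at E13.5, and 68.4 and 38.4 RPKM at E16.5. The E11.5 captures lay on either side of E10.5, and 81.4% of E10.5 cells already held the transcript. Its exons overlap 178 bases of an antisense gene model, 4933431E20Rik.

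The other classes were on at E10.5 too. Mgst1 (chr6:138140316-138156755, plus strand) had 22.05 RPKM at E10.5, 98.7 and 128 RPKM at E11.5, 143 and 139 RPKM at E12.5, 245 and 134 RPKM at E13.5, and 170 and 144 RPKM at E16.5. Gsta4 (chr9:78182774-78209349, plus strand), whose enzyme acts on 4-hydroxynonenal, had 88.3 RPKM at E10.5, 190 and 182 RPKM at E11.5, 148 and 162 RPKM at E12.5, 396 and 166 RPKM at E13.5, and 450 and 384 RPKM at E16.5. Gstp1 was the most even, with 165 to 307 RPKM in later captures, against 195 RPKM at E10.5. Mgst1 and Gsta4 were higher in each E11.5 capture than at E10.5, by 2.30 and 1.07 in log2(mean RPKM + 1), and Gstp1 by 0.37.

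Counted over the members, 8 of 9 had both E11.5 captures above the E10.5 capture, Gstm5 being the exception. Of all 12313 genes tested, 38.7% did so, and since this step chose the list the count is a description only. For E12.5 against E11.5, 4 of 9 members (Gstm1, Gstm2, Gstm6 and Mgst1) had both later captures above both earlier ones, where 18.6% of all genes did. Gsta4 was the member with both E12.5 captures below both E11.5 captures. E10.5 and E11.5 differ in nominal sequencing depth, so stage and depth cannot be told apart at that step.

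**Figure D3:**
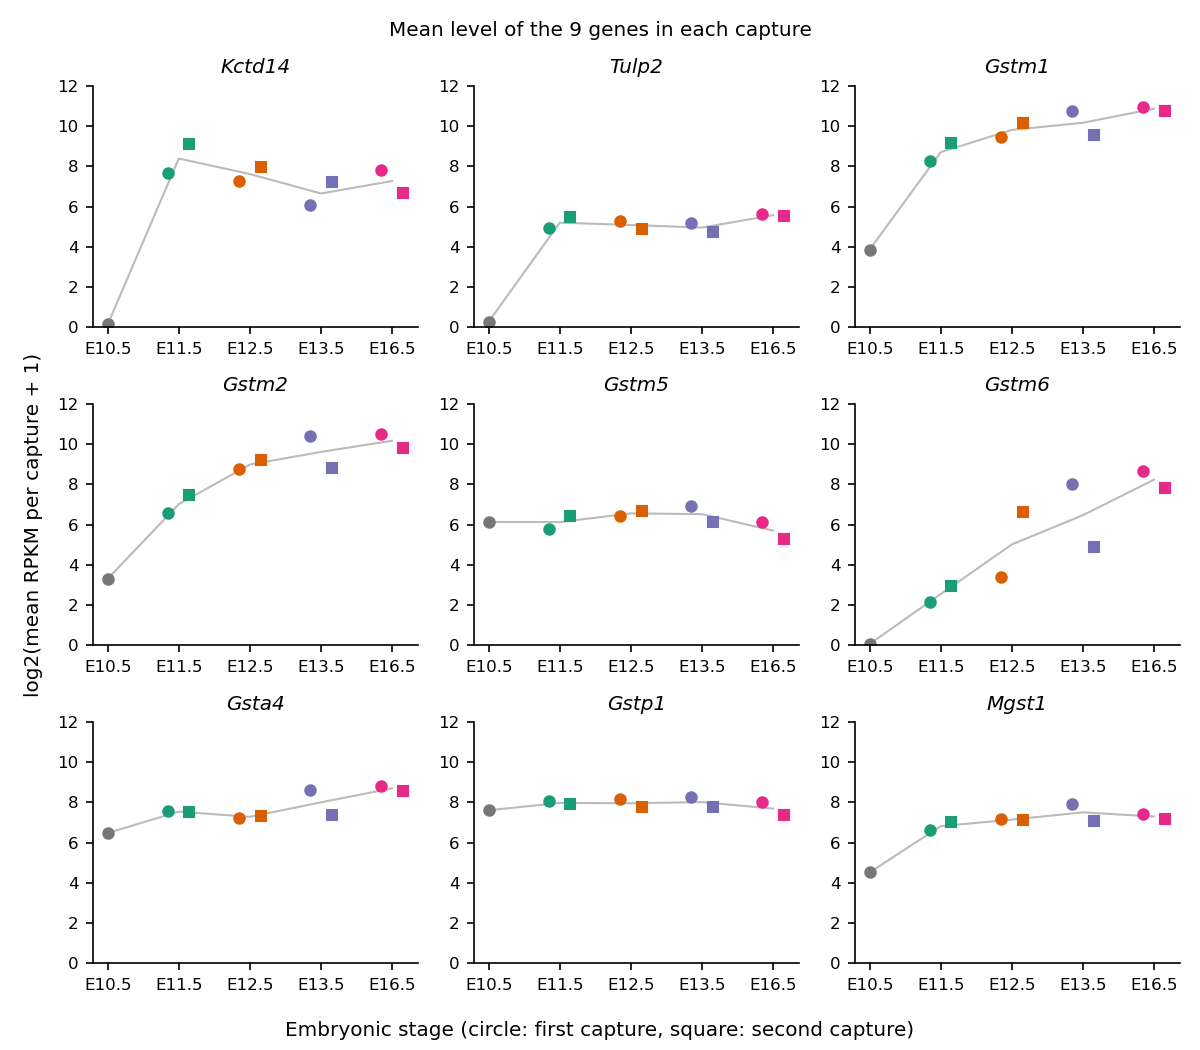
Mean level of the 9 genes in each capture, as log2(mean RPKM per capture + 1), by stage. Circles are first captures, squares are second captures and the grey line joins stage means; Kctd14 and Tulp2 step up once at E11.5, Gstm1, Gstm2 and Gstm6 go on upward, and Gstm5 and Gstp1 stay between 5 and 9.

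After E12.5 no member passed the test on capture means. In E16.5 against E12.5, which share a nominal sequencing depth, 0 of 9 members had an adjusted p under 0.05 (limma, Benjamini-Hochberg over all genes), and 0.357% of all genes were called. At an unadjusted p under 0.05 there were 4 of 9 members, where 12.2% of all genes were. Gsta4 had the lowest adjusted p: 450 and 384 RPKM at E16.5, against 148 and 162 RPKM at E12.5, gave a log2 difference of 1.42 ± 0.37 (SE, adjusted p = 0.129 by limma). The groups did not overlap, and leaving out either E13.5 capture, which changes the estimate of the spread but not the difference, gave an adjusted p of 0.0336 without the first and 0.0304 without the second.

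Gstm6 had a larger and less certain log2 difference between E16.5 and E12.5, 3.22 ± 1.03 (adjusted p = 0.214 by limma). Without the second E12.5 capture it was 4.84, adjusted p = 0.126. Gstm1 (1.05 ± 0.41, adjusted p = 0.315) and Gstm2 (1.18 ± 0.49, adjusted p = 0.344) did not overlap between the stages either, and without that capture they came to 1.42 and 1.43. Gstm5 differed by -0.85 ± 0.41 (adjusted p = 0.44), or -0.73 without that capture. The other 4 members had log2 differences from -0.35 for Kctd14 to 0.49 for Tulp2 and adjusted p from 0.687 to 0.903 by limma. Without the second E12.5 capture these were -0.01 for Kctd14, 0.30 for Tulp2, -0.46 for Gstp1 and 0.14 for Mgst1.

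The other late steps gave 0 of 9 calls as well, also at an unadjusted p under 0.05. For E13.5 against E12.5 the log2 differences ran from -0.97 for Kctd14 to 1.46 for Gstm6 (lowest adjusted p = 0.994 by limma), and 0% of all genes were called. Without the second E12.5 capture Kctd14 stood at -0.63 and Gstm6 at 3.07, adjusted p = 0.696. For E16.5 against E13.5 they ran from -0.82 for Gstm5 to 1.76 for Gstm6 (lowest adjusted p = 0.615), beside 0.0893% of all genes called. Stage and nominal sequencing depth cannot be told apart in these steps, and the E13.5 captures differ in chip size.

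The share of cells rich in Sertoli markers differed between these stages. Cells with at least 6 of 8 Sertoli markers numbered 5 of 30 and 5 of 37 in the E12.5 captures, 22 of 56 and 10 of 56 in the E13.5 captures, and 19 of 31 and 15 of 34 in the E16.5 captures. Both E16.5 captures thus had higher shares than every E12.5 and E13.5 capture, as they did in mean level for Gstm1 and Tulp2 but not for the other 7 members. Within those cells alone, a comparison added after the data were seen, E16.5 minus E12.5 was -0.30 ± 0.30 for Gstm1, -0.20 ± 0.33 for Gstm2, 1.61 ± 0.95 for Gstm6 and 1.17 ± 0.56 for Gsta4 on the log2 scale. For Gstm1 and Gstm2 both estimates lay within about 1 SE of 0 in these cells. Tulp2 had 78.4 and 91.4 RPKM in these cells at E16.5, against 183 and 124 RPKM at E12.5. The E12.5 values rest on 5 cells in each capture. Whether the share of such cells has a part in the stage differences was not tested. Gstm5 had 63.8 and 15.1 RPKM in these cells at E16.5, against 170 and 268 RPKM at E12.5, without overlap, and its log2 difference of -2.73 ± 0.65 had an adjusted p of 0.216 by limma.

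To compare cell types within a capture, a cell was called a Sertoli-marker cell if at least 3 of 8 Sertoli markers (Amh, Dhh, Ptgds, Aard, Cst9, Defb19, Rhox8 and Mro) and fewer than 3 of 8 interstitial markers reached 1 RPKM. An interstitial-marker cell held at least 3 of the 8 interstitial markers, among them Pdgfra, Tcf21, Dcn, Nr2f2, Gli1, Ptch1 and Col3a1, and fewer than 3 Sertoli and fewer than 3 of 5 Leydig markers. The 4 captures of E13.5 and E16.5 had at least 5 cells of each kind, 38 Sertoli-marker and 94 interstitial-marker cells in all, and 37 cells of these captures held both marker sets and were left out. The median Sertoli-marker cell held 8 Sertoli markers and 1 interstitial marker, and the median interstitial-marker cell 0 and 6. The markers of Leydig, endothelial, germ and surface epithelial cells had a median of 0 found in either kind.

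In Sertoli-marker cells 7 of the 9 genes were higher, and Gstm5 and Gstp1 were not called. The share of all 11388 genes called higher was 3.18%, 4.15% were called lower and 7.33% in either direction. The same 7 members were higher in each of the 4 captures, where 10.9% of all genes were. None of the members was a gate marker.

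Kctd14 averaged 224 and 703 RPKM in Sertoli-marker cells of the E13.5 captures and 319 and 171 RPKM in those of E16.5. In interstitial-marker cells of the same captures it had 2.90, 5.70, 5.44 and 0.09 RPKM. The cell kinds did not overlap, and the log2 difference was 6.38 ± 0.46 (SE, adjusted p = 1.03e-05 by limma). Kctd14 was found in 37 of 38 Sertoli-marker cells and 15 of 94 interstitial-marker cells.

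Tulp2 had 114, 61.2, 85.9 and 96.1 RPKM in Sertoli-marker cells, against 4.20, 20.5, 0.69 and 6.56 RPKM in interstitial-marker cells. The cell kinds did not overlap over the captures, though the second E13.5 capture had a difference of 1.53 where the first E16.5 capture had 5.69. The fitted log2 difference was 3.84 ± 0.65 (adjusted p = 0.00344 by limma). With no filter on low values, the adjusted p was 0.117.

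Gstm1 reached the highest levels of the list, 5386, 3780, 3355 and 4105 RPKM in Sertoli-marker cells, against 173, 111, 156 and 62.5 RPKM in interstitial-marker cells. It was found in all 38 Sertoli-marker cells and in 65 of 94 interstitial-marker cells, so the cell kinds differed in amount more than in presence. The log2 difference was 5.12 ± 0.22 (adjusted p = 6.79e-08 by limma). Gstm2 stood at 4598, 2398, 2535 and 2156 RPKM in Sertoli-marker cells, against 126, 61.1, 56.6 and 66.4 RPKM in interstitial-marker cells, a log2 difference of 5.23 ± 0.18 (adjusted p = 3.68e-09).

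Between the cell kinds of these E13.5 and E16.5 captures, Gstm6 was close to a present-or-absent gene, as Kctd14 was. It had 1030, 195, 636 and 465 RPKM in Sertoli-marker cells, against 4.24, 0.56, 16.7 and 17.6 RPKM in interstitial-marker cells. It was found in 37 of 38 Sertoli-marker cells and in 8 of 94 interstitial-marker cells, and the log2 difference was 6.10 ± 0.49 (adjusted p = 2.41e-05 by limma). Its level in Sertoli-marker cells of the first E13.5 capture was above that of both E16.5 captures.

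Gsta4 and Mgst1 differed less. Gsta4 had 934, 530, 621 and 640 RPKM in Sertoli-marker cells, against 172, 103.003, 99.7 and 129 RPKM in interstitial-marker cells, with a log2 difference of 2.43 ± 0.20 (adjusted p = 2.41e-05 by limma). Mgst1 had 713, 279, 243 and 229 RPKM in Sertoli-marker cells, against 101, 97.9, 20.7 and 17.6 RPKM in interstitial-marker cells, with 2.86 ± 0.36 (adjusted p = 0.000452). For both genes every Sertoli value lay above every interstitial value. With no filter on low values, the adjusted p of Mgst1 was 0.077. With wider gates (at least 6 Sertoli markers, or at most 1 on the interstitial side), each E12.5 capture had 5 Sertoli-marker cells. There Gsta4 had 149 and 529 RPKM in Sertoli-marker cells, against 143 and 79.2 RPKM in interstitial-marker cells. Mgst1 had 136 and 216 RPKM, against 129 and 149 RPKM. Kctd14 had 772 and 678 RPKM, against 14.4 and 23.1 RPKM. It was found in 15.8% of 19 interstitial-marker cells in the first E12.5 capture and in 85.7% of 7 in the second.

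For Gstm5 and Gstp1 no difference between the cell kinds passed the test. Gstp1 averaged 246 ± 64.3 RPKM in Sertoli-marker cells and 214 ± 54.03 RPKM in interstitial-marker cells (SD, n = 4 captures), a log2 difference of 0.19 ± 0.22 (adjusted p = 0.682 by limma). Gstm5 averaged 90.6 ± 63.7 RPKM in Sertoli-marker cells and 81.6 ± 20.4 RPKM in interstitial-marker cells, with a difference of -0.21 ± 0.45 (adjusted p = 0.848). It was higher in Sertoli-marker cells of both E13.5 captures and lower in those of both E16.5 captures.

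Whether the difference between the cell kinds itself changed with stage was tested by an interaction term, added after the data were seen. At an unadjusted p under 0.05 there were 3 of 9 members, where 7.12% of all genes were, and 0 passed the correction. The E16.5 minus E13.5 change of the log2 difference was -2.39 ± 0.67 for Gstm6 (adjusted p = 0.666 by limma), -2.001 ± 0.66 for Gstm5 (adjusted p = 0.666) and 1.402 ± 0.57 for Mgst1 (adjusted p = 0.684).

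**Figure D4:**
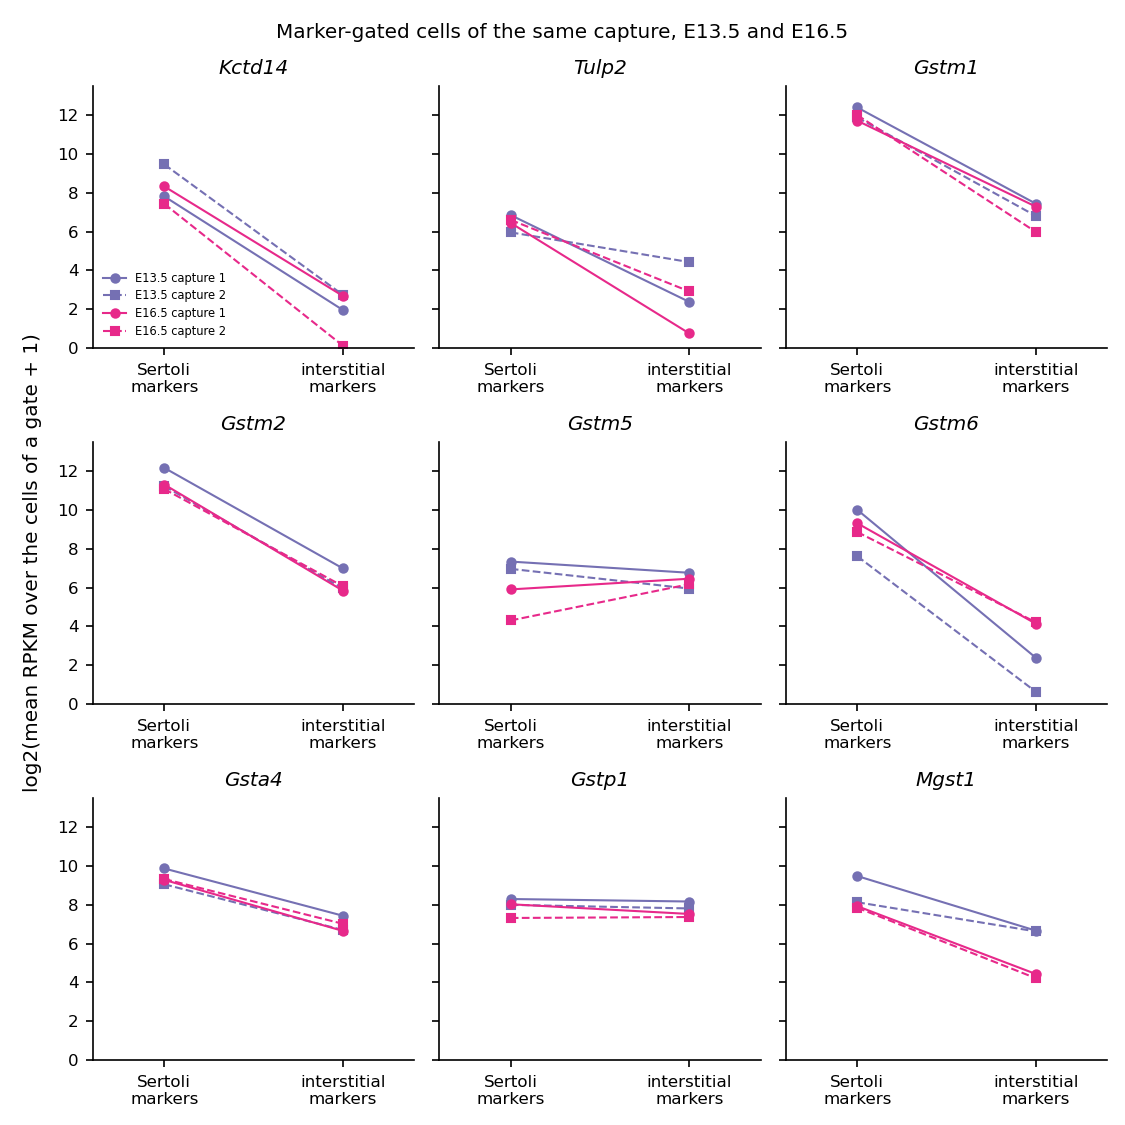
Level of the 9 genes in Sertoli-marker cells (left) and interstitial-marker cells (right) of the same capture, as log2(mean RPKM over the cells + 1). Each line is 1 of the 4 captures of E13.5 and E16.5; every line falls to the right for 7 genes, while Gstp1 is nearly level and Gstm5 slopes down at E13.5 and up at E16.5.

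Sertoli-marker cells also held more detected genes, with medians of 6478 and 6701 in the E13.5 captures and 5625 and 4986 at E16.5, against 5783, 5489, 5339 and 4459 in interstitial-marker cells. The implied depth was close, at 7.98, 7.97, 2.76 and 2.69 M reads in Sertoli-marker cells and 8.37, 7.72, 2.33 and 2.60 M reads in interstitial-marker cells. The part of detected genes in the differences was not tested. Gstp1 was found in 36 of 38 Sertoli-marker and 90 of 94 interstitial-marker cells. Since nearly every cell held it, its share cannot show whether detection had such a part.

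Among the other glutathione transferases, Gstm7 and Mgst3 were the clearest calls. Of 19 tested in the marker-gated cells, 3 rose and 0 fell, where 3.18% of all genes rose: Gstm7 (log2 difference 5.36 ± 0.47), the microsomal Mgst3 (3.50 ± 0.59) and Ptges, which makes prostaglandin E2 (2.80 ± 0.75). Under 14 alternatives Gstm7 and Mgst3 were called in 13 each and Ptges in 4. The list's median difference was 0.22, beside -0.16 over all genes and 3.84 over the members. Gstm7, the neighbour of Gstm6 in the cluster, had 890, 775, 270 and 242 RPKM in Sertoli-marker cells and 62.4, 17.4, 0.82 and 6.58 RPKM in interstitial-marker cells. In E16.5 against E12.5, 1 of 18 was called, the alpha-class gene Gsta2 (4.73 ± 0.62, adjusted p = 0.00912 by limma), which shares 98% of its aligned coding bases with Gsta1 and is uncertain as a single gene. Without any 1 of the 4 captures of these stages its adjusted p was 0.0581 to 0.0733.

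Of 17 genes tested from the glutathione synthesis and recycling list, 0 were higher and 1 was lower in Sertoli-marker cells. That is near the 7.33% of all genes called in either direction. The lower gene was Ggt5 (-3.03 ± 0.83), a gamma-glutamyl transferase, called in 6 of the 14 alternatives. Gclc and Gclm, subunits of the rate-limiting ligase, had -0.39 ± 0.64 and 0.07 ± 0.72 and were not called, with adjusted p of 0.793 and 0.975 by limma. The list's median was 0.07.

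Among 22 glutathione peroxidases, redoxins and superoxide-handling enzymes, 3 rose and 2 fell in Sertoli-marker cells, beside 3.18% and 4.15% of all genes. The glutaredoxin Glrx (2.05 ± 0.48), the mitochondrial peroxiredoxin Prdx3 (1.53 ± 0.28) and Prdx2 (0.87 ± 0.21) were higher, and Gpx3 (-3.10 ± 0.78) and Gpx7 (-1.65 ± 0.44) were lower. These 5 calls held in 4 to 9 of the 14 alternatives. Of 18 genes of the NRF2 pathway, the main inducer of these enzymes under oxidative stress, 4 rose and 0 fell, with a list median of 0.996 beside -0.16 over all genes. They were Me1 (4.38 ± 0.58) and G6pdx (2.65 ± 0.57), both of which make NADPH, the small Maf protein gene Mafk (2.98 ± 0.81) and Akr1b8 (1.99 ± 0.34). Of the 14 alternatives, Me1 was called in 13, Akr1b8 in 12, G6pdx in 9 and Mafk in 7. Nfe2l2 (0.96 ± 0.59), which encodes NRF2, and the target Nqo1 (2.02 ± 0.80) were not called, with adjusted p of 0.375 and 0.167.

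Among relatives of Kctd14 and Tulp2 none was called higher, where 3.18% of all genes were called higher and 4.15% lower. Of 19 KCTD-related genes tested, 0 were higher and 2 were lower in Sertoli-marker cells, Kctd12b (-3.96 ± 0.74) and Kctd10 (-3.04 ± 0.81), which were called in 11 and 4 of the 14 alternatives, and the list's median was -0.75. Of the Tubby family, Tulp3 (-0.74 ± 0.74) and Tulp4 (-0.65 ± 0.69) could be tested and neither was called, with adjusted p of 0.624 and 0.655. Of 11 NR5A1 and steroid list genes that were not gate markers, 4 were called higher in Sertoli-marker cells, beside 3.18% of all genes. They were Inha (6.63 ± 0.74), Star (4.30 ± 0.77), Fdxr (2.53 ± 0.58) and Nr5a1 (2.04 ± 0.50), while Lhx9 was lower (-3.79 ± 0.71). The gate bears on these genes, since it left 6 cells with at least 3 Leydig markers out of the interstitial-marker cells but not 2 such cells out of the Sertoli-marker cells. With the 6 cells kept, an alternative added after the data were seen, Star stood at 0.03 ± 1.04 (adjusted p = 0.993 by limma) and Nr5a1 at 1.11 ± 0.45 (adjusted p = 0.171), while Inha (3.31 ± 0.29) and Fdxr (1.91 ± 0.53) stayed called. The 7 members called higher were 7 in that fit too.

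For E11.5 against E10.5, the genes of these lists that are not members were tested, with the single E10.5 capture assumed to vary like the captures of the other stages. Of these genes 2 were called, both from the NR5A1 and steroid list: Inha, an inhibin subunit (log2 difference 3.29 ± 0.39, adjusted p = 0.00438 by limma), and Cyp11a1, the enzyme of the first step of steroid synthesis (4.06 ± 0.75, adjusted p = 0.0454). With a pseudocount of 10 or with means of log2 values 0 were called, and without any 1 of the E11.5, E12.5 or E16.5 captures Cyp11a1 was no longer called (adjusted p from 0.0501 to 0.355). Stage and nominal sequencing depth cannot be told apart here. The other lists gave 0 calls. Among them, 18 other glutathione transferases had a median difference of 0.28, and 18 genes of the synthesis and recycling list had 0.35. Over all genes 0.382% were called higher.

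Within captures, Kctd14 and Gstm1 went together cell by cell. At E11.5, Gstm1 was found in 25 of the 26 cells with at least 100 RPKM of Kctd14 and in 22 of the 47 cells under 1 RPKM. In the first E11.5 capture Gstm1 averaged 973 RPKM in the 10 Kctd14-high cells, against 88.4 RPKM in the 28 cells under 1 RPKM. In the second it averaged 1360 RPKM in 16 cells, against 43.9 RPKM in 19 cells.

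The same cells were rich in Tulp2 and in Nr5a1. At E11.5 Tulp2 was found in 20 of the 26 Kctd14-high cells and 7 of the 47 Kctd14-low cells, and Nr5a1 in 26 of 26 high cells and 32 of 47 low cells. Sox9, the transcription factor of Sertoli fate, was found in 20 of 26 high cells and 22 of 47 low cells. At E10.5, where no cell was Kctd14-high, Sox9 was found in 45 of the 56 low cells, so finding it does not by itself mark a Sertoli cell. Gstm6 was found in 5 of the 26 high cells at E11.5, in 14 of 27 at E12.5, in 25 of 27 at E13.5 and in 27 of 27 at E16.5. Its share among Kctd14-high cells was lowest at E11.5 and complete at E16.5. Gstp1 was in 25 of 26 high cells and 46 of 47 low cells at E11.5, and Gstm5 in 24 of 26 and 27 of 47.

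**Figure D5:**
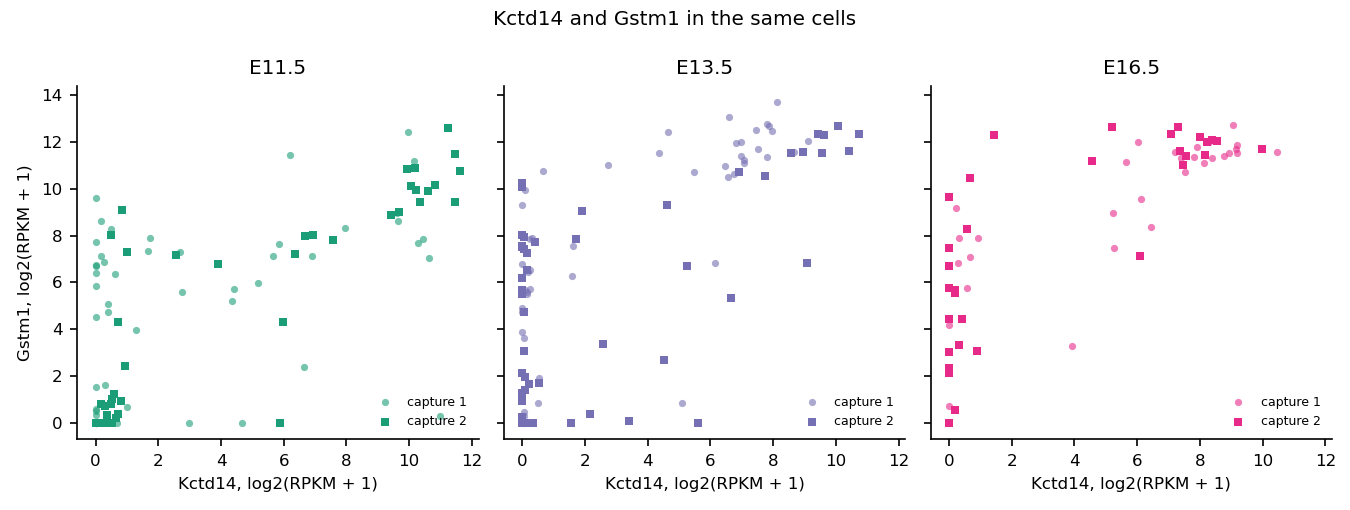
Kctd14 (horizontal) against Gstm1 (vertical) in the same cells at E11.5, E13.5 and E16.5, both as log2(RPKM + 1). Circles are cells of the first capture and squares of the second; cells with high Kctd14 mostly have high Gstm1, while cells without Kctd14 spread over the range of Gstm1.

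Across the cells of a capture, the Pearson correlation of Kctd14 with Gstm1 had a median of 0.70 over the 8 captures from E11.5 on, with a range of 0.37 to 0.85. The medians were 0.69 for Gstm2, 0.66 for Gstm6, 0.54 for Tulp2, 0.49 for Gsta4 and 0.36 for Mgst1, against 0.04 for Gstm5 and 0.04 for Gstp1. The range was -0.10 to 0.50 for Gstm5 and -0.20 to 0.47 for Gstp1. In the E11.5 captures the correlation with Gstm5 was 0.27 and 0.50, so the low median does not hold at that stage. These values describe mixtures of cell types captured on the same chip. Kctd14 also went with the number of genes detected in a cell, with correlations of 0.02 to 0.45.

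The genes most like Kctd14 across cells, of 7230 ranked by median correlation, were Etnk2 (0.77), an ethanolamine kinase gene, Mro (0.76), Tmprss13 (0.75), Tmem184a (0.74) and Inha (0.71). Gstm1 ranked 6 and Gstm2 ranked 9 on that list. For Gstm1 they were Gstm2 (0.74), Etnk2 (0.73), Clu (0.72), Kctd14 itself (0.70) and Aldh1a1 (0.70). Mro is one of the Sertoli markers of the gate.

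Across the 9 capture means, of 7662 genes, those most like Kctd14 were Reep1 (0.95), Klhl23, Gpr37, Tulp2, Cbln4 and Pwwp2b (0.94 each). Those most like Gstm1 were Serpinb6a (0.99), Gstm2, Atp1b2, Axl (0.98 each), Mgst1 and Mapk13 (0.97 each). The measure was Pearson's r of log2(mean RPKM + 1), and the single E10.5 capture is the low point of most of these genes. Reep1, for example, had 9.09 to 34.03 RPKM in later captures, against 1.05 RPKM at E10.5.

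Promoter windows of 300 bases (250 before to 50 after the start site, from RefSeq on GRCm38.p6) were at hand for 7 members. They were searched on both strands for the core of the antioxidant response element, TGACNNNGC, which 12.4% of all 32851 promoters hold, for the NR5A1 motif CAAGGNCA (6.71%) and for the SOX motif AACAAT (10.7%). The first was found in Gstm5 and in Mgst1, the second in another Mgst1 window, and none of the 3 in Gstm1, Gstm2, Gstm6, Tulp2 or Gstp1. The 2 stretches with the antioxidant core, in capitals, are shown because 1 gene was higher in Sertoli-marker cells and the other was not called.
Gstm5, chr3:107895786-107895845, plus strand: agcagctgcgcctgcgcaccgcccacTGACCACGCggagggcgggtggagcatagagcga
Mgst1, chr6:138140445-138140504, plus strand: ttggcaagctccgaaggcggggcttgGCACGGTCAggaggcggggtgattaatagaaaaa

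The match begins 42 bases before the start site in Gstm5 and 56 bases before it, on the reverse strand, in Mgst1. A match of these letters is a description and not a shown site of binding.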

How the data were processed

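The authors deposited RPKM values of 400 single cells of 435 labelled ones, and the other 35 were not used here. Per the labels' protocols, cells were captured on C1 chips, cDNA was made with the SMARTer kit and libraries with Nextera XT, read as 100 bp pairs at a nominal 25 or 10 M reads. Per the submitters' processing notes the builds were GRCm38.p3 and mm10. Aligner, counting tool, annotation and strand setting: not given in the sources used here. RPKM as the unit rests on the values, and implied depths come from their smallest steps with GENCODE M21 lengths. RPKM divides by depth and length, so low values rest on few reads.

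A cell needed 3000 detected genes, which removed 3 cells of E16.5, and 2 cells of the second E12.5 capture with a correlation of 0.998 were averaged. Means over the cells of a capture were fitted as log2(mean RPKM + 1) with limma 3.58.1 in R 4.3.3 (trend, robust), for genes whose mean reached 1 RPKM in 2 or more captures, with stage as a factor, or with capture as a block for marker-gated cells. P-values were adjusted by Benjamini-Hochberg over all genes, with a threshold of 0.05. Fold changes on this scale understate changes of low genes. The single E10.5 capture takes its spread from the other stages. The fits were tested on simulated data.

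Members and gene lists were chosen with earlier results of these data known. One of the interstitial gate markers is not reported here by name. The text names the members, the genes most like Kctd14 and Gstm1 (6 over captures, at 10 RPKM or more in the highest, and 5 over cells, in at least 20% of them; no Gm or Rik models), up to 4 called genes per list by size of change, or else the 2 highest, and neighbours of Kctd14 and Tulp2; Gclc, Gclm, Nfe2l2, Nqo1, Sox9 and Gstm3 were named after their values were seen. Alternatives tried were pseudocounts of 0.1 and 10, no filter and one at 5 RPKM, means of log2 values, median-ratio scaling, all cells, late captures only, other marker numbers, no block and leaving out each capture. Cells with at least 6 Sertoli markers, wider gates, Leydig-marker cells kept and the difference between stages were added after the data were seen.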

Additional observations from a re-analysis of the deposited data

Results flagged for a closer look

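Gstm5 was the member whose difference between Sertoli-marker and interstitial-marker cells pointed one way in both E16.5 captures and the other way in both E13.5 captures. It had 58.9 and 18.8 RPKM in Sertoli-marker cells and 86.8 and 71.1 RPKM in interstitial-marker cells at E16.5, and 161 and 124 RPKM against 108 and 60.8 RPKM at E13.5. The E16.5 difference minus the E13.5 difference was -2.001 ± 0.66 on the log2 scale (SE, p = 0.014, adjusted p = 0.666 over all genes by limma), so it did not pass the correction. The same term was -2.39 ± 0.67 for Gstm6 (p = 0.00562) and 1.402 ± 0.57 for Mgst1 (p = 0.0345, adjusted p = 0.666 and 0.684 by limma), without a turn of direction between captures. The E13.5 and E16.5 captures differ in nominal sequencing depth, so stage and depth cannot be told apart here.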

How the results depend on the processing

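The 7 members called higher in Sertoli-marker cells stayed called under 13 or 14 of 14 alternatives each, and leaving out a capture left 7 of 9 called each time. All genes called in that comparison numbered 835, against 245 with at least 2 markers, 1633 with means of log2 values, 145 with no filter and 496 to 522 without 1 capture. Member calls in E16.5 against E12.5 numbered 0, against 1 with means of log2 values (Gstm6) and 0 to 1 without 1 capture, and in E16.5 against E13.5 0, against 1 with means of log2 values (Gstm6) and 0 to 0 without 1 capture. All genes called in E16.5 against E12.5 numbered 44, against 68 with a pseudocount of 10, 76 with the filter at 5 RPKM, 194 with means of log2 values, 5 with no filter, 3 in cells with at least 6 Sertoli markers and 4 to 48 without 1 capture. In E16.5 against E13.5 they numbered 11, against 23, 63 and 0 with the pseudocount of 10, means of log2 values and no filter, 0 in the Sertoli-marker cells and 0 to 11 without 1 capture. In E11.5 against E10.5 they numbered 48, against 98 and 10 with pseudocounts of 0.1 and 10, 25 with means of log2 values, 205 with no filter and 6 to 48 without 1 capture. The 2 listed genes called there that are not members became 4 and 0 with pseudocounts of 0.1 and 10, 0 with means of log2 values, 1 with all cells and 1 to 2 without 1 capture. The mean share of E11.5 cells with Kctd14, 49.9% at 1 RPKM, was 83.1% above 0 and 41.7% at 10 RPKM or more. Members above E10.5 at E11.5 numbered 8 to 9 without 1 capture, and those above E11.5 at E12.5 4 to 5.

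Signs of log2 differences turned as follows. In cells with at least 6 Sertoli markers, E16.5 minus E12.5 was -0.82 for Tulp2, -0.30 for Gstm1 and -0.20 for Gstm2, E13.5 minus E12.5 was -0.12 for Gstm1 and -0.19 for Gstp1, and E16.5 minus E13.5 was -0.28 for Kctd14, -0.18 for Gstm1 and -0.33 for Gstm2. With means of log2 values, E16.5 minus E12.5 was -0.93 for Mgst1, E13.5 minus E12.5 was 0.36 for Tulp2, -0.94 for Gstm1, 0.33 for Gstm5 and -0.37 for Mgst1, E12.5 minus E11.5 was 1.02 for Kctd14, and Sertoli-marker minus interstitial-marker cells was 0.69 for Gstm5, which was 0.33 with wider gates and -0.61 to 0.35 without 1 capture. Median-ratio scaling gave 0.00011 for Gstm5 in E13.5 minus E12.5. Without 1 capture, E16.5 minus E12.5 ranged from -0.92 to 0.22 for Kctd14 and -0.59 to 0.055 for Gstp1. E13.5 minus E12.5 ranged from -0.35 to 0.0896 for Tulp2, -0.24 to 0.95 for Gstm1, -0.17 to 1.43 for Gstm2, -0.45 to 0.37 for Gstm5, -0.16 to 3.07 for Gstm6, -0.19 to 0.30 for Gstp1 and -0.0700 to 0.79 for Mgst1. E16.5 minus E13.5 ranged from -0.24 to 1.35 for Gstm2 and -0.64 to 0.22 for Mgst1. None of the tested differences among these passed, E12.5 minus E11.5 had no test, and the causes were not tested. No paired analysis was possible because capture numbers mark no shared litter or day between stages. At E11.5, 1 RPKM of Kctd14 is 5.68 to 7.05 reads, so absence below that is not shown.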
